A study of Mus musculus with 2 samples.

Results

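The potassium channel subunit genes of the mouse were described here in the embryonic hindbrain. They were chosen by symbol, as protein-coding genes whose symbol begins with Kcn followed by subfamily letters and a number. Of 93 matching genes, Kcnj8 and Kcnj13 were left out by the rule, which left 91 of the 43346 genes in the tables. The rule itself uses symbols and no level. Total RNA of B6NCrl hindbrains at embryonic day 14.5 was sequenced in 2 replicates, which form 1 group with no second condition. Each replicate is labelled as the hindbrain of a single pup, yet its sex is labelled as pooled and both carry the same donor identifier. The pups were collected on different dates, so date and replicate cannot be told apart. Levels are TPM, transcript abundances that the authors corrected for gene length and library size, and the libraries held 34929425 expected counts in replicate 1 and 33510896 in replicate 2.

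Potassium channels let potassium leave or enter the cell, and so set the resting potential, repolarise the action potential and pace repetitive firing. Voltage-gated pore subunits open on depolarisation, calcium- and sodium-activated pores open with the ion inside the cell, inward rectifiers and two-pore leak channels hold the membrane near rest, and auxiliary subunits change the gating and trafficking of the pores. In the embryonic brain the set of channels changes as progenitors leave the cell cycle and become excitable neurons. In bulk tissue, fewer cells of a type and less RNA per cell cannot be told apart.

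At least 1 TPM in both replicates, the limit of detection used here, was reached by 60 of the 91 genes (65.9%), against 13429 of 21474 protein-coding genes (62.5%). A single replicate passed for 6 genes, and 25 lay below the limit in both. A mean of at least 10 TPM was reached by 22 subunit genes (24.2%), against 42.6% of protein-coding genes, and the median of the detected genes was 6.44 TPM, against 19.8 TPM. The detected subunits were thus mostly of low level beside other protein-coding genes. Summed over the 91 genes, the level was 655 TPM in replicate 1 and 721 TPM in replicate 2 (688 ± 46.2 TPM, SD, n = 2). The 10 highest genes held 50.4% of that sum in replicate 1 and 48.1% in replicate 2.

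Auxiliary subunits took the largest share of the summed level, 41.8% in replicate 1 and 38.6% in replicate 2. Voltage-gated pores followed with 31.2% and 32.8% in replicates 1 and 2. The two-pore leak channels held 11.0% in replicate 1 and 12.6% in replicate 2, and the calcium- or sodium-activated pores 10.7% and 10.1%. These last classes kept their order in both libraries, though the gap between them was of the size of their spread. Inward rectifiers held 2.996% in replicate 1 and 3.07% in replicate 2, and the silent modulatory subunits 2.29% and 2.90%. By subfamily the highest sums in both replicates were those of Kcnip and Kcnk, and those of Kcng and Kcnf were the lowest.

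**Figure D1:**
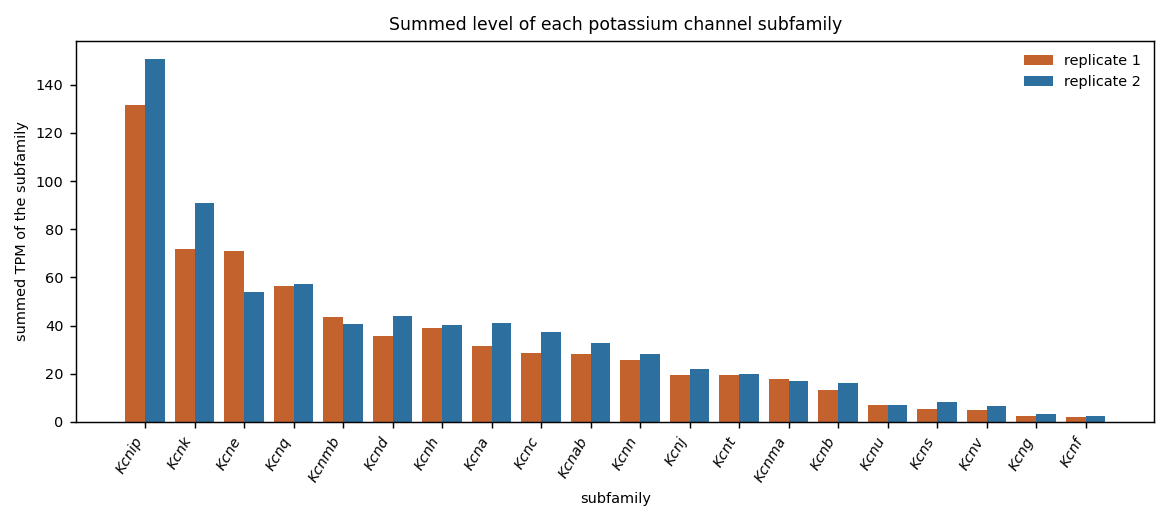
Summed TPM of each potassium channel subfamily (vertical axis, TPM) in replicate 1 (left bars) and replicate 2 (right bars), ordered by the mean. Kcnip stands at 131 TPM in replicate 1 and 151 TPM in replicate 2, above every other subfamily, and Kcne is the subfamily with the clearest excess in replicate 1, 71.0 TPM against 53.9 TPM.

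Among the voltage-gated pores, 25 of 30 genes were detected. Kcnq3, a subunit of the M current that restrains repetitive firing, had 3.63 TPM in replicate 1 and 4.26 TPM in replicate 2. Kcnq5 stood at 2.01 and 2.19 TPM in replicates 1 and 2, and Kcnq1, a cardiac and epithelial channel, at 0.72 and 1.09 TPM. The deposited credibility intervals of Kcnq1 lay above these values, 1.08 to 4.07 TPM in replicate 1 and 1.44 to 4.69 TPM in replicate 2. Its posterior mean was 2.675 TPM as a mean of the replicates, so its place beside the limit depends on the estimate used. Kcnq1 overlaps Kcnq1ot1 on the opposite strand, with 2.08 TPM in replicate 1 and 1.76 TPM in replicate 2.

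The Kcnd subunits carry the fast inactivating A-type current. Kcnd2 had 23.4 TPM in replicate 1 and 30.0 TPM in replicate 2, Kcnd3 9.21 and 9.93 TPM, and Kcnd1 3.17 and 3.93 TPM. Their order was the same in both libraries, and Kcnd2 held 65.4% of the subfamily in replicate 1 and 68.4% in replicate 2. Of the delayed rectifiers, Kcnb2 had 10.2 TPM in replicate 1 and 13.1 TPM in replicate 2. Of the Kcnc channels, which sustain fast spiking in mature neurons, Kcnc1 stood at 12.7 and 16.4 TPM in replicates 1 and 2, Kcnc4 at 7.05 and 10.8 TPM, and Kcnc2 at 4.24 and 5.25 TPM.

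In the Kcnh group, the ERG gene Kcnh2 had 12.2 TPM in replicate 1 and 11.6 TPM in replicate 2, and Kcnh7, another ERG gene, 8.90 and 7.87 TPM. The other Kcnh genes ranged from 0.68 TPM for Kcnh3 in replicate 2 to 7.11 TPM for Kcnh4 in replicate 2. Kcnh3 was the single Kcnh gene below the limit in both replicates. It overlaps Mcrs1 on the opposite strand, which had 156 TPM in replicate 1 and 155 TPM in replicate 2, and whether the counting used strand is not stated in the labels or file headers.

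The Kcna (Shaker) genes were led by subunits other than those that dominate adult hindbrain axons. Kcna6 had 14.8 TPM in replicate 1 and 18.7 TPM in replicate 2, and Kcna3 8.43 and 11.9 TPM. Kcna1 and Kcna2, the juxtaparanodal subunits of myelinated axons, stood at 1.18 and 1.33 TPM and at 0.26 and 0.49 TPM in replicates 1 and 2. Kcna6 therefore exceeded Kcna1 by 12.6-fold and 14.1-fold in replicates 1 and 2, and both libraries gave the same order. These are whole-gene levels. The coding model Kcna6-204 was listed at 2.99 and 4.80 TPM in replicates 1 and 2, and its split from another model is uncertain, as given below. Kcna4 (4.53 and 5.77 TPM) and Kcna5 (2.33 and 2.71 TPM) lay between Kcna3 and Kcna1. Kcna7 had at most 0.03 TPM, and Kcna10 had no count. For Kcna10, 3 counts would be 0.135 TPM in replicate 1 and 0.148 TPM in replicate 2. Its deposited upper bounds were higher, 0.553 TPM in replicate 1 and 0.605 TPM in replicate 2.

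Some subunit genes that are neighbours on a chromosome differed widely in level. Others lay close, such as Kcnj9 (1.62 and 1.35 TPM in replicates 1 and 2) and Kcnj10 (2.22 and 2.85 TPM). Neighbours were not compared with subunit genes that lie apart. In 8 places, subunit genes lay within 200 kb of each other, and these held 18 of the 91 genes. On chromosome 3, Kcna3, Kcna2 and Kcna10 follow each other on the plus strand, with the levels given above, and on chromosome 6, Kcna5, Kcna1 and Kcna6 do so on the minus strand. The sequences before the RefSeq start of Kcna3 and of Kcna10 (GRCm38.p6) are shown because these neighbours lie at the ends of the range, up to the first annotated exon. They are chr3:107035912-107036161 and chr3:107182893-107183055, both on the plus strand, with each CG dinucleotide in capitals.
Kcna3: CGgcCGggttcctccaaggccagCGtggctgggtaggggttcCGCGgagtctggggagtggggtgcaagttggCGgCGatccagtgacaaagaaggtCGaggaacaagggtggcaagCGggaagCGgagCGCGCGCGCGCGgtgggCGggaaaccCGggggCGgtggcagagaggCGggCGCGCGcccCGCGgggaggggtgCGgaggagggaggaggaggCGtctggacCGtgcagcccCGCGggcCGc
Kcna10: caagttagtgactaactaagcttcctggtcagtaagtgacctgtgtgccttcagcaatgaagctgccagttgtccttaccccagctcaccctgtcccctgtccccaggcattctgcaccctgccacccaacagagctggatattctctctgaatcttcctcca
The Kcna3 stretch of 250 bases holds 31 CG and that of Kcna10, 163 bases, holds 0. In the full window of 300 bases around the start, Kcna3 had 37 CG and Kcna10 none. Of 16317 protein-coding genes with such a window, 6.28% had at least 37 CG, as a mean over the windows of a gene, and 4.58% had none. Kcna2, low in both libraries, had 31 CG. CG reads the same on both strands, and its presence is a description of the sequence alone. A window was found for 66 of the 91 genes, under 80%, so a summary over the subunit genes is void.

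The silent subunits Kcnf, Kcng, Kcns and Kcnv form no channel alone and modify Kcnb channels in heteromers. Of 10 genes, 4 were detected. Kcnv1 had 5.03 TPM in replicate 1 and 6.38 TPM in replicate 2, Kcns2 3.71 and 6.12 TPM, Kcnf1 2.23 and 2.64 TPM, and Kcng2 1.53 and 2.13 TPM. Kcns1 stood at 0.84 TPM in replicate 1 and 1.29 TPM in replicate 2, Kcng1 at 0.68 and 1.10 TPM, and Kcnv2 at 0.05 and 0.08 TPM. Kcns3 had 0.81 TPM in replicate 1 and 0.94 TPM in replicate 2, and Kcng3 and Kcng4 had at most 0.12 TPM. By TPM all 10 had the lower value in replicate 1. Most protein-coding genes lay on that side too, 62.6% of those averaging 1 TPM or more. Of the 10, Kcng3, Kcng4 and Kcnv2 had at most 9 counts in either replicate. In the comparison given below, 7 were tested and 3 were called lower in replicate 1.

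By gene TPM, all 8 genes placed in the class of calcium- or sodium-activated pores were detected. Here and in the shares and calls, this class includes the pH-sensitive Kcnu1, whose level came from short models, as given below. Kcnma1, the BK channel gated by voltage and calcium together, had 17.7 TPM in replicate 1 and 17.1 TPM in replicate 2. The sodium-activated Kcnt1 had 16.6 and 16.4 TPM in replicates 1 and 2, and Kcnt2 2.98 and 3.65 TPM. Of the small-conductance channels that give the afterhyperpolarisation, Kcnn2 had 13.8 TPM in replicate 1 and 15.5 TPM in replicate 2, and Kcnn3 5.54 and 6.07 TPM. Kcnn1 stood at 4.59 and 5.59 TPM in replicates 1 and 2. For the genes of this class above 10 TPM the replicates lay close together.

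Kcnu1, the pH-sensitive channel of sperm, was listed at 6.90 TPM in replicate 1 and 6.98 TPM in replicate 2, from 163 and 157 counts. The full-length transcript Kcnu1-201, with 27 exons, held 1.49 counts in replicate 1 and 0 in replicate 2. The short Kcnu1-202 (1446 nt, 8 exons) had 4.60 and 5.15 TPM in replicates 1 and 2, and Kcnu1-203 (697 nt, 6 exons) 2.28 and 1.83 TPM. Both short models begin inside the gene, at positions 25911680 and 25911692 of chromosome 8 on the plus strand, while Kcnu1-201 begins at 25849623. The gene's TPM therefore came from the models of its 3′ part, and Kcnu1-201 was listed at 0.02 TPM in replicate 1 and 0 in replicate 2.

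The inward rectifiers kept by the rule, which leaves out Kcnj8 and Kcnj13, were low, with 6 of 13 genes detected. Kcnj3, a G protein-gated subunit, had 6.11 TPM in replicate 1 and 7.04 TPM in replicate 2. Its partners Kcnj6 and Kcnj9 had 2.38 and 2.06 TPM and 1.62 and 1.35 TPM in replicates 1 and 2. Kcnj12, a classical strong rectifier, had 2.65 and 3.50 TPM. Kcnj10, the potassium-buffering channel of glia, stood at 2.22 and 2.85 TPM in replicates 1 and 2, and its partner Kcnj16 at 1.98 and 2.82 TPM. Kcnj11, a pore subunit of ATP-sensitive channels, had 0.78 and 0.57 TPM in replicates 1 and 2. That was below Abcc8, its sulfonylurea receptor, which had 4.11 TPM in replicate 1 and 4.57 TPM in replicate 2. The other undetected genes, Kcnj14, Kcnj2, Kcnj5, Kcnj15, Kcnj1 and Kcnj4, had at most 1.03 TPM in either replicate.

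Of the two-pore leak channels, 6 of 14 were detected. The mechano- and lipid-sensitive Kcnk10 and Kcnk2 (TREK channels) had 19.7 and 26.8 TPM and 18.3 and 20.4 TPM in replicates 1 and 2. The weak rectifier Kcnk1 had 15.1 TPM in replicate 1 and 21.0 TPM in replicate 2. The acid-sensitive Kcnk3 and Kcnk9 (TASK channels) had 9.01 and 10.7 TPM and 5.44 and 7.19 TPM in replicates 1 and 2. These 5 genes stood well apart from the remaining Kcnk genes, of which Kcnk4, the third gene of the TREK group, was the highest at 1.36 and 2.22 TPM. Kcnk12, Kcnk5, Kcnk13, Kcnk6, Kcnk15, Kcnk7 and Kcnk18 had at most 1.03 TPM in either replicate. Kcnk16 had no count, which allows up to 0.180 TPM in replicate 1 and 0.197 TPM in replicate 2.

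**Figure D2:**
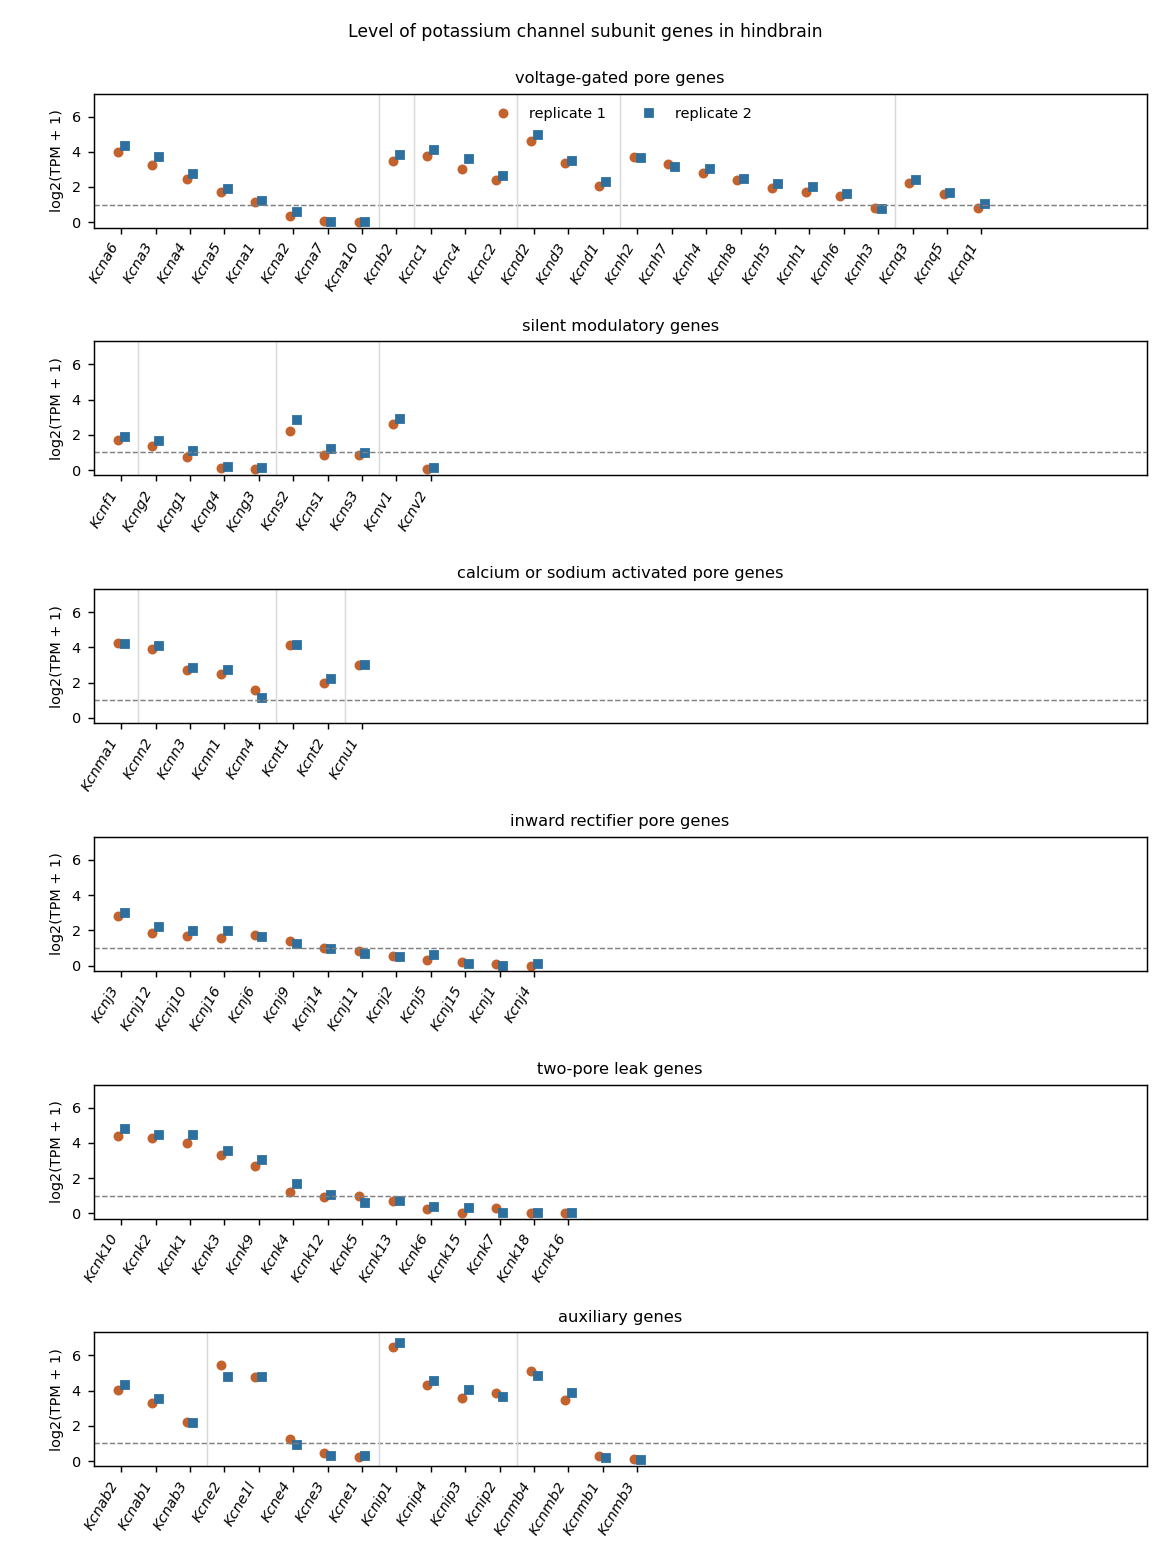
Level of 87 of the 91 subunit genes as log2(TPM + 1) (vertical axes) in replicate 1 (circles) and replicate 2 (squares), in 1 panel for each role and grouped by subfamily. The dashed line marks 1 TPM; Kcnip1 is the highest gene shown, and most Kcnj genes lie near the line or below it.

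Kcnip1 (ENSMUSG00000053519.11) had the highest level of all 91 genes. It encodes a calcium-binding protein (KChIP) that joins Kcnd channels and raises their surface expression, and had 87.1 TPM in replicate 1 and 102 TPM in replicate 2 (94.5 ± 10.4 TPM, SD, n = 2). Kcnip4, Kcnip3 and Kcnip2 had 19.2 and 22.3, 11.2 and 15.3, and 13.8 and 11.3 TPM in replicates 1 and 2. Summed, the Kcnip genes exceeded the Kcnd genes 3.68-fold in replicate 1 and 3.44-fold in replicate 2. Dpp6 and Dpp10, the other auxiliary family of these channels, exceeded them 2.57-fold and 2.47-fold in replicates 1 and 2. The auxiliary transcripts of the A-type channel thus outnumbered its pore transcripts in both libraries.

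The start of the main Kcnip1 transcripts is shown because the gene has several annotated starts and its reads fell mostly on 1 of them. Kcnip1-201 held 54.2% of the gene's transcript TPM in replicate 1 and 53.0% in replicate 2, and Kcnip1-203 39.5% and 42.1%. They begin at positions 33843527 and 33843585 of chromosome 11 on the minus strand, just after a RefSeq start, whereas Kcnip1-205, which begins at the gene's far 5′ end at 33993152, held 0.757% and 0.609%. The bases before that RefSeq start are chr11:33843687-33843936 (GRCm38.p6, minus strand, each CG in capitals).
Kcnip1: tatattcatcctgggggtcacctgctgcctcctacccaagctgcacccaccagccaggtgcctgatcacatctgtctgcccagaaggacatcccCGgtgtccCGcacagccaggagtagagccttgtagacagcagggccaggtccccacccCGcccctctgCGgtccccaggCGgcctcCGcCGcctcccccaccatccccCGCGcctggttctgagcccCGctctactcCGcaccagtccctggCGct
It holds 12 CG, and its window of 300 bases holds 16. The other Kcnip1 windows hold 4 and 7, which gives a mean of 9 over 3 windows, and 60.3% of protein-coding genes with a window had a mean of at least 10. The main transcripts differ by 1 coding exon of 33 bases, at chr11:33651540-33651572 on the minus strand, present in Kcnip1-203 and absent from Kcnip1-201, and given whole in capitals.
Kcnip1-203: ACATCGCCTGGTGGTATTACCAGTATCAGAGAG
Both forms were abundant in both libraries. Kcnip1-201 had 47.2 TPM in replicate 1 and 53.9 TPM in replicate 2, and Kcnip1-203 34.4 and 42.9 TPM.

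For the other Kcnip genes the transcript with the largest share differed between the replicates. The sequences in which the competing forms of Kcnip2 and Kcnip3 differ are shown to let the size of these differences be seen. Kcnip2-209 carries a coding exon of 54 bases that Kcnip2-202 lacks, at chr19:45796279-45796332 on the minus strand. In Kcnip3-203 an exon starts 4 bases earlier than in Kcnip3-201, and its first 30 bases, chr2:127465949-127465978 on the minus strand, are given with the extra bases in capitals.
Kcnip2-209: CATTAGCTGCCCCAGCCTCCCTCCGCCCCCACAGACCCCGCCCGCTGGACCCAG
Kcnip3-203: ACAGcagtgacagtgaactggagttatcca
Kcnip2-202 held 59.9% in replicate 1 and 40.0% in replicate 2, and Kcnip2-209 20.0% and 42.3%. The deposited credibility intervals of both forms overlapped between the replicates. Kcnip3-201 held 51.7% in replicate 1 and 5.17% in replicate 2, and Kcnip3-203 46.1% and 92.0%. For Kcnip3-203 the intervals, 2.26 to 7.70 TPM in replicate 1 and 11.7 to 14.96 TPM in replicate 2, did not overlap, although the models of 2728 and 2732 nt differ by those 4 bases alone. The annotated coding lengths are 852 nt for Kcnip3-201 and 768 nt for Kcnip3-203. Kcnip4-207 held 28.5% and 24.9% in replicates 1 and 2, and Kcnip4-208 16.1% and 34.4%, with overlapping intervals.

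The beta subunits of Kcna channels were detected in all 3 cases. Kcnab2 had 15.3 TPM in replicate 1 and 18.9 TPM in replicate 2, Kcnab1 9.01 and 10.4 TPM, and Kcnab3 3.68 and 3.44 TPM. Their sum was 0.888 of the Kcna sum in replicate 1 and 0.797 in replicate 2. Of the BK beta subunits, Kcnmb4, the neuronal form, had 33.3 TPM in replicate 1 and 27.2 TPM in replicate 2, and Kcnmb2 10.0 and 13.3 TPM. Kcnmb1, the smooth muscle form, and Kcnmb3 had at most 0.21 TPM. The Kcnmb sum was 2.46 times Kcnma1 in replicate 1 and 2.39 times in replicate 2. Kcnmb4 overlaps Kcnmb4os2 on the opposite strand, which had 6.11 TPM in replicate 1 and 4.33 TPM in replicate 2.

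The Kcne genes encode single-pass auxiliary proteins, and their levels were very unequal. Kcne2 (ENSMUSG00000039672.8), an auxiliary subunit known from the apical membrane of the choroid plexus, had 42.5 TPM in replicate 1 and 26.1 TPM in replicate 2. Kcne1l had 26.7 and 26.6 TPM in replicates 1 and 2, nearly the same level in both. Kcne4 (1.34 and 0.86 TPM), Kcne3 (0.35 and 0.20 TPM) and Kcne1 (0.18 and 0.20 TPM) were near or below the limit. Kcne1 lies beside Kcne2 on chromosome 16. The 250 bases before the Kcne2 start, chr16:92292139-92292388 on the plus strand (GRCm38.p6), are shown because Kcne2 had the lowest adjusted p of the subunit genes and its RefSeq start meets the 5′ end of the gene model.
Kcne2: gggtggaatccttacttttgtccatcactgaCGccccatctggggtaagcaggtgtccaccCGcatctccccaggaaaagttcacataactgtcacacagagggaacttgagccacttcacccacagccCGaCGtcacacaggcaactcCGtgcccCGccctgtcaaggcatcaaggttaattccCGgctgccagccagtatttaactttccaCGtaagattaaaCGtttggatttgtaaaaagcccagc
The capitals mark 9 CG. A second Kcne2 window, at a later RefSeq start, holds 1, which gives a mean of 5, below the 10 or more that 60.3% of protein-coding genes have as a mean over their windows.

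Transcript models not annotated as protein coding took part of some genes' level. Of 22 subunit genes averaging at least 10 TPM, 19 had the same main transcript in both replicates, and in 13 the main transcript held under 60% in at least 1 replicate. By TPM, Kcnt1 was highest in the retained-intron model Kcnt1-208, with 28.6% in replicate 1 and 27.8% in replicate 2, and models not annotated as protein coding held 62.6% and 63.3% of its transcript TPM. The longer coding model Kcnt1-204 held more expected counts, 389 and 369 in replicates 1 and 2, against 205 and 180 for Kcnt1-208. The deposited intervals of these models overlapped in both replicates. These shares of TPM are thus not shares of reads. For Kcna6, models not annotated as coding held 79.8% in replicate 1 and 74.3% in replicate 2. Its 2 longest models, Kcna6-201, annotated for nonsense-mediated decay, and Kcna6-204, coding, have 2 exons each, 5827 and 5836 nt and an equal coding length of 1587 nt. Their intervals in replicate 1, 1.95 to 8.11 TPM for Kcna6-201 and 1.48 to 7.37 TPM for Kcna6-204, covered nearly the same range, so the split between them is uncertain.

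The main transcripts under 60% in Kcnab2, Kcnh2, Kcnk2, Kcnma1, Kcnn2 and Kcnc1 were protein coding. Kcnab2-201 held 57.6% in replicate 1 and 49.8% in replicate 2, Kcnh2-201 55.6% and 59.9%, and Kcnk2-202 51.3% and 49.7%. Kcnma1-201 held 40.1% and 36.5% in replicates 1 and 2, Kcnn2-205 39.5% and 34.7%, and Kcnc1-201 44.1% and 33.9%. Among 28 subunit genes above a mean of 1 TPM that have a model not annotated as coding, the median share of such models was 9.40%, against 11.9% over 7788 protein-coding genes. At least 25% was held by such models in 6 of the 28 genes (21.4%), against 30.8% of the protein-coding genes.

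**Figure D3:**
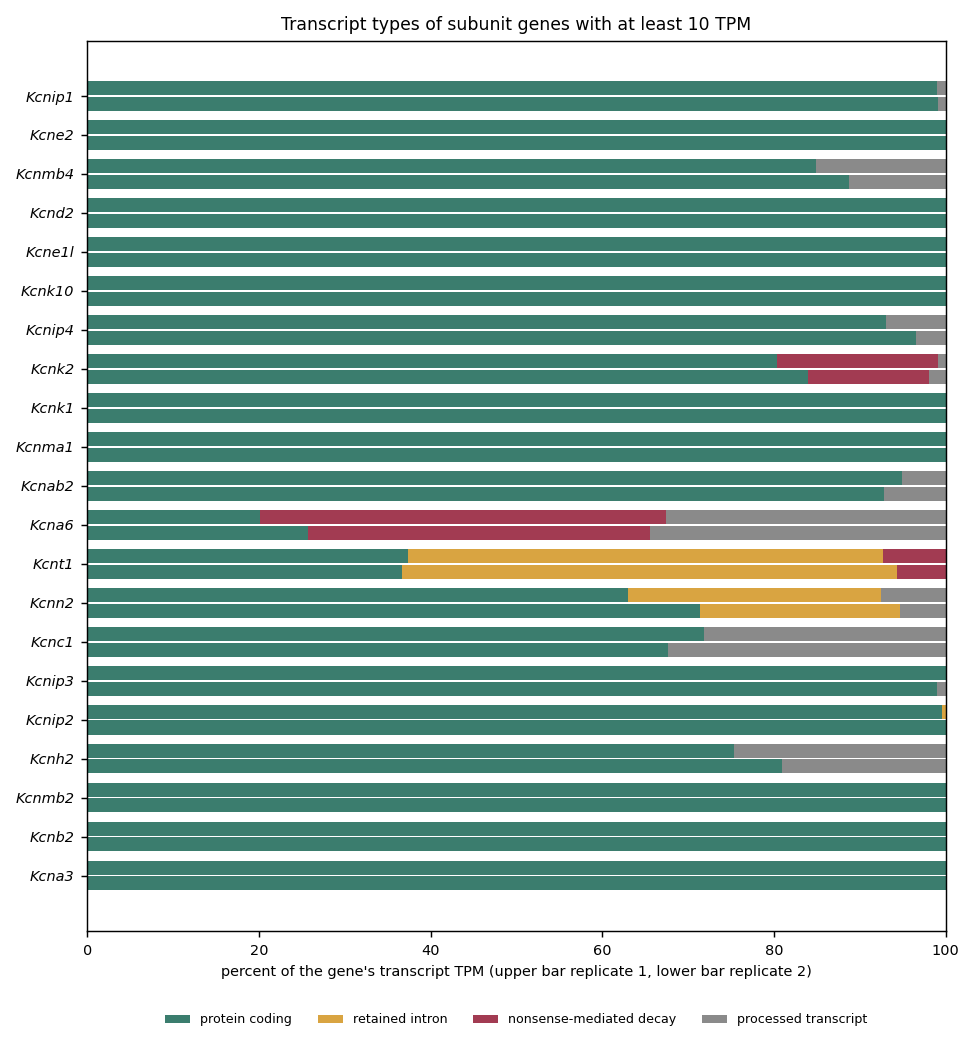
Percent of each gene's transcript TPM (horizontal axis) held by transcripts annotated as protein coding, retained intron, nonsense-mediated decay or processed transcript, for 21 of the 22 subunit genes averaging at least 10 TPM, ordered by level, with replicate 1 above replicate 2. Kcnt1 and Kcna6 are the genes in which coding models hold the smaller part.

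The tissue label and other cell types were checked by markers. All 7 pan-neuronal markers were detected, led by Tubb3, Stmn2, Map2 and Elavl4 and summing to 3279 TPM in replicate 1 and 3435 TPM in replicate 2, and so were all 6 radial glia markers, led by Fabp7, Vim, Slc1a3 and Hes5. All 5 markers each passed of the oligodendrocyte lineage (led by Olig1, Pdgfra, Olig2 and Sox10), endothelium (Cldn5, Cdh5, Pecam1, Tie1), pericytes (Vtn, Rgs5, Pdgfrb, Abcc9), microglia (C1qb, C1qa, Csf1r, Aif1) and erythroid cells (Hbb-bs, Hba-a1, Alas2). The erythroid sum was 4510 TPM in replicate 1 and 5520 TPM in replicate 2. Of 5 skeletal muscle markers 1 was detected, Acta1, while Myh3, Myog and Myod1 had at most 0.18 TPM. The otic markers Oc90, Otor, Tecta and Pou4f3, which would mark inner ear tissue in the dissection, were detected in 0 of 4 cases, though Otor (0.11 and 2.05 TPM in replicates 1 and 2) and Pou4f3 (0.25 and 1.29 TPM) lay above 1 TPM in replicate 2. The spread between the libraries exceeded counting noise: the mean chi-square was 12.7 per gene over 17664 genes and 9.64 over the tested subunit genes.

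The 2 libraries were set against each other for the subunit genes. Such a comparison cannot show how far hindbrains of the same age differ, since its p-values weigh counting error alone. An exact two-sided binomial test of rounded expected counts, scaled to each library's summed gene counts and Benjamini-Hochberg adjusted over 17664 genes of a mean count of at least 10, compares these libraries and not conditions. It called 27 of 76 tested subunit genes (35.5%), against a background of 34.4% of all tested genes. With this scaling the share of the subunit genes called was near the background. Higher in replicate 1 were 6 subunit genes, against a background of 18.7%, and lower were 21, against 15.7%. Scaled by the spike-in total, 43 of 76 were called (56.6%), against 43.7% of all tested genes, 5 of the 43 higher and 38 lower in replicate 1. With that total 19.4% of all gene calls were higher in replicate 1, against 54.3% with the gene total. By role, 11 of 28 voltage-gated pores were called, 1 higher and 10 lower in replicate 1, and 7 of 13 auxiliary subunits, 3 higher and 4 lower. Of the two-pore leak channels 3 of 10 were called, of the silent subunits 3 of 7, of the inward rectifiers 2 of 10 and of the calcium- or sodium-activated pores 1 of 8.

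Most subunit genes lay somewhat lower in replicate 1. On the log2(TPM + 1) scale, which understates changes of low genes, the median ratio of replicate 1 over replicate 2 was -0.10 over the 91 genes. Over the 62 with a mean of at least 1 TPM it was -0.19, against -0.06 over protein-coding genes, and 48 of the 62 (77.4%) were lower, against 62.6%. Among pore genes above 10 TPM, for example, Kcnd2, with the values given above, had a log2 ratio of scaled counts of -0.29 (exact binomial test, adjusted p = 6.61e-12), Kcnk10 -0.37 (exact, adjusted p = 1.69e-08) and Kcnk1 -0.40 (exact, adjusted p = 4.2e-07). Other pore genes above 10 TPM were not called with the gene total, among them Kcnh2 (0.07), Kcnma1 (0.11), Kcnt1 (0.09), Kcnn2 (-0.01), Kcnk2 (-0.08) and Kcnc1 (-0.08). With the spike-in total 17 subunit genes gained a call, among them Kcnc1 (-0.20, exact, adjusted p = 0.00277). Kcnc4, at 7.05 TPM in replicate 1 and 10.8 TPM in replicate 2, had -0.54 (exact, adjusted p = 2.42e-08). Kcnip1, Kcnip3 and Kcnip4 were lower in replicate 1 and Kcnip2 was higher, all 4 past the threshold. Kcnip2, with a log2 ratio of 0.32, was no longer called with the spike-in total (0.19, exact, adjusted p = 0.0734), nor was Kcnip4, with -0.18, without the count filter (exact, adjusted p = 0.0603). The pan-neuronal markers had a median log2 ratio of -0.06 with 1 of 7 called, higher in replicate 1. The oligodendrocyte lineage markers had -0.32 with 4 of 5 called lower, and summed to 110 TPM in replicate 1 and 140 TPM in replicate 2. The erythroid markers had -0.34 with 4 of 5 called lower, and the otic markers -0.41 with 2 of 3 tested called lower. Radial glia markers had -0.02 with 2 of 6 called higher and 2 lower, and endothelial markers 0.0013 with 1 of 5 higher. Pericyte markers had 0.01 with 2 of 5 higher and 1 lower, and microglia markers 0.11 with 1 of 5 higher. Choroid plexus markers are given below. Of all tested genes, 18.7% were called higher in replicate 1 and 15.7% lower. The part of these cell types in the lower subunit levels was not tested.

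A difference of at least 1.5-fold as well was shown by 6 subunit genes, against a background of 5.97%. Higher in replicate 1 were Kcne2, Kcnn4 and Kcnk5, against a background of 4.44%, and lower were Kcns2, Kcng1 and Kcnj5, against 1.52%. Kcns2, with 338 and 510 counts in replicates 1 and 2, had a log2 ratio of -0.65 (exact binomial test, adjusted p = 1.84e-09). Kcnn4, a calcium-activated channel known from red blood cells and lymphocytes, had 83 and 46 counts (0.80, exact, adjusted p = 0.0106) and 2.01 and 1.22 TPM in replicates 1 and 2. Kcnk5, an acid-sensitive leak channel, had 66 and 34 counts and 0.95 and 0.53 TPM in replicates 1 and 2 (0.90, exact, adjusted p = 0.0106). Kcng1 had 49 and 86 counts (-0.87, exact, adjusted p = 0.0036), and Kcnj5, a G protein-gated rectifier, 22 and 42 counts and 0.23 and 0.49 TPM (-0.99, exact, adjusted p = 0.028).

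Kcne2 had 1443 counts in replicate 1 and 809 in replicate 2, a log2 ratio of 0.78 (exact binomial test, adjusted p = 6.93e-34), and was the subunit gene of at least 10 TPM with the largest ratio. The choroid plexus markers summed to 1903 TPM in replicate 1 and 1153 TPM in replicate 2, and 5 of 6 were detected. Ttr had 1825 TPM in replicate 1 and 1094 TPM in replicate 2, and Folr1 54.6 and 34.3 TPM. Clic6 was also called higher in replicate 1, Kl was called lower, Otx2 and Prlr were not called, and no marker of the list was at 0. Their part in the Kcne2 difference was not tested. Without Kcne2, named after its values were seen, the auxiliary share of the summed level was 37.03%, against 40.2% with it, as means of the replicates. A fall is fixed by construction, since Kcne2 is an auxiliary gene.

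**Figure D4:**
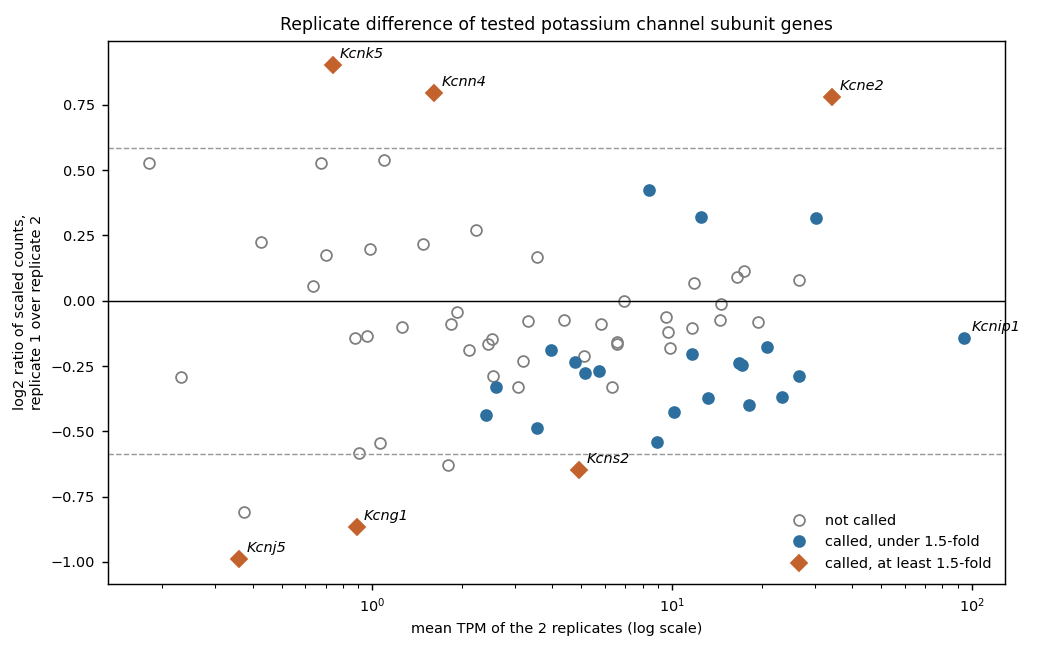
Log2 ratio of scaled counts, replicate 1 over replicate 2 (vertical axis), against the mean TPM (horizontal axis, log scale) for 72 of the 76 tested subunit genes. Diamonds are the 6 genes called with at least 1.5-fold, filled circles the other called genes and open circles the genes not called; dashed lines mark 1.5-fold, and Kcne2 is the only diamond above 10 TPM.

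Proteins that work with these channels were measured from a list of 18 partners, 15 of them detected. Ank3, the ankyrin that anchors channels at the axon initial segment, had 106 TPM in replicate 1 and 101 TPM in replicate 2. Dpp6 had 66.0 and 76.3 TPM in replicates 1 and 2, and Lingo1 40.8 and 48.3 TPM. The partners below the limit in both replicates were Lrrc26, Lrrc38 and Lrrc52, relatives that act as gamma subunits of BK-type channels. The fourth of that group, Lrrc55, had 5.09 TPM in replicate 1 and 6.81 TPM in replicate 2. Of 16 partners tested, 2 were called higher and 5 lower in replicate 1, against 18.7% and 15.7% of all tested genes.

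The Hcn genes encode related pacemaker channels that pass both potassium and sodium. Hcn3 had 23.4 TPM in replicate 1 and 29.6 TPM in replicate 2. Hcn4 stood at 3.62 and 4.91 TPM in replicates 1 and 2, and Hcn2 at 2.31 and 3.49 TPM. All 11 pump and cotransporter genes that set the ion gradients were detected. Atp1b1, a beta subunit of the sodium pump, had 187 TPM in replicate 1 and 269 TPM in replicate 2, and Atp1b3 143 and 159 TPM. Hcn2, Hcn3, Hcn4 and 5 of 11 pumps and cotransporters were called lower in replicate 1, and 2 pumps or cotransporters higher. Of all tested genes, 15.7% were called lower and 18.7% higher.

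Just above the detection limit lay Kcna1, Kcnn4, Kcnj9 and Kcnk4, whose lower value of the pair was between 1.18 and 1.36 TPM. Just below it lay Kcnj14 (1.03 TPM in replicate 1 and 0.94 TPM in replicate 2), Kcnk12 (0.89 and 1.03 TPM), Kcne4 and Kcns1, whose lower value was between 0.84 and 0.94 TPM. The values on either side of the limit overlapped. Of the 91 genes, 37 overlap an annotated gene on the opposite strand, and for 10 that gene had at least 1 TPM in both replicates. Reads of such pairs cannot be told apart where counting was unstranded.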

How the data were processed

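Total RNA above 200 nt, 10 ng per library with spike-ins, was sequenced from 2 hindbrain replicates. Per the labels and file headers, reads were assigned by the authors to mm10 with annotation M4. For aligner, quantification tool and strand handling: not given in the sources used here. Expected counts, as deposited, are estimates without normalisation, and were rounded for the test. TPM and FPKM were scaled by the authors, over features that include 97 spike-in features. The deposited credibility bounds are score values whose level is not stated. For some genes, such as Kcnq1 and Kcnab2, the TPM lay outside these bounds in both replicates. Symbols, coordinates and transcript models came from GENCODE M21 (GRCm38, the mm10 assembly), and promoter windows, 250 bases before to 50 after a start, from RefSeq (GRCm38.p6).

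Detection was 1 TPM in both replicates, the pseudocount 1, the adjusted p threshold 0.05. Nothing shows that the replicates are independent beyond pup and date labels. The p-values set the difference between these libraries against counting noise alone, and measure no spread between hindbrains. That difference may be technical. Reads carry no molecular identifiers, so floors of 3 counts (0.0859 and 0.0895 CPM in replicates 1 and 2) cover counting error only. The test script was checked on simulated counts that hold counting noise alone, so the check cannot show how many calls are false here. Genes in the text were the 2 highest of each subfamily, those of at least 10 TPM, those called with 1.5-fold and those beside the limit; others complete a subfamily. Some genes that this rule takes are left out of text and figures. The members and lists were chosen with earlier results of these data known. Tools were R 4.3.3, edgeR 4.0.16, DESeq2 1.42.0, Python 3.11.15, scipy 1.17.1, numpy 2.4.6, pandas 2.3.3 and matplotlib 3.10.9. Alternatives were FPKM, posterior mean TPM, other limits, filters, pseudocounts and scalings, and each replicate alone.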

Additional observations from a re-analysis of the deposited data

How the results depend on the processing

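The number of detected subunit genes was 55 by FPKM, 61 by posterior mean TPM, 71 and 53 at 0.5 and 2 TPM, 62 with TPM rescaled without spike-ins and mitochondrial genes, and 33 at 5 TPM; leaving out either replicate gave 62 to 64. The summed level was 411 in FPKM and 781 TPM when rescaled, both by construction, and 655 to 721 TPM with either replicate left out. Leaving out a replicate, FPKM and rescaling could not test the role shares, since these settings move them little or by a fixed part of their spread by construction. Posterior means gave the inward rectifiers 3.18%. Without Kcne2, an alternative chosen after seeing the data, the shares were 37.03% for auxiliary, 33.7% for voltage-gated, 10.9% for calcium- or sodium-activated and 3.20% for inward rectifier genes. The direction of these shifts is fixed by construction, since Kcne2 is an auxiliary gene. The number of called subunit genes was 31 of 76 with TMM (35.5% of all genes were called), 30 of 76 with DESeq2 size factors (35.1%), 26 of 89 without a count filter (23.2%), 25 of 57 at a mean count of at least 100 (41.5%), 43 of 76 with the spike-in total (43.7%) and 6 of 76 with at least 1.5-fold (5.97%). Of the calls, 22.2% were higher in replicate 1, and 11.6% with the spike-in total. No called gene changed direction. The calls of Kcnip2 and Kcnip4 were lost as given above, and 17 subunit genes gained a call with the spike-in total. The median log2 ratio was -0.20 with a pseudocount of 0.1, -0.19 over genes of at least 1 TPM, -0.18 with spike-in scaling, -0.11 with TMM and -0.05 in FPKM. Over genes of at least 1 TPM the median of the 62 subunit genes was -0.24 with spike-in scaling, against -0.10 over all genes, and -0.13 with the gene total, against 0.02. The median share of models not annotated as coding was 9.40% by transcript FPKM and 8.63% to 8.83% with either replicate left out. The cause of these shifts was not tested. No replicate could be left out of the tests between the replicates. No paired analysis was possible because the samples form 1 group. Depth allowed 76 of the 91 genes to be tested.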
